A study of Mus musculus with 12 samples.

Results

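The genes described are the 10 members of the core circadian clock loop, followed in the hypothalamus of wild-type and Asmt knockout mice, at rest and after swimming exercise. Members were taken by gene symbol: Arntl, Clock, Npas2, Per1, Per2, Per3, Cry1, Cry2, Nr1d1 and Nr1d2 carried 24 of the 56605 probes on the array, among 27308 gene symbols in all. Of these 24 probes, 21 were tested because the scanner marked them as well above background in every mouse of 1 group or more (18 of them in all 12 mice), and each of the 10 genes had at least 1 tested probe. The 3 probes that were not tested were A_55_P2019327 of Per1, A_52_P536869 of Per2 and A_55_P2741789 of Clock. Some tested probes bear the gene symbol but no RefSeq transcript in the deposited annotation. They are A_66_P137063 of Per3, A_55_P1953708 and A_55_P2721990 of Cry2, A_52_P279391 of Clock and A_55_P2148534 of Nr1d2. What RNA these read was not tested.

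RNA of the hypothalamus of 12 male mice, labelled as 6 to 7 weeks old, the age at which training began, and kept under 12 h of light and 12 h of dark, was hybridised to 1-color Agilent arrays, with 3 mice in each of 4 groups. WT mice were wild-type littermates and KO mice were homozygous for the Asmt knockout, both without training, and the wild-type mice that swam are called exercised WT here and the knockout mice that swam KE. Asmt encodes the enzyme of the last step of melatonin synthesis, and the knockout is a 20 bp deletion made with Cas9 in C57BL/6 zygotes, whose founders were backcrossed to wild-type littermates for 3 generations. The authors describe C57BL/6J mice as inherently low in Asmt activity and deficient in melatonin. They found no significant effect of the knockout on serum melatonin. Swimming raised it in their data, with a significant interaction of knockout and swimming. The single Asmt probe was well above background in 0 of 12 mice, so it could not check the genotype labels. Swimming was daily and in the morning over several weeks. The hour at which the hypothalamus was collected is not given in the sources used here, so the values are single readings, 1 per mouse, of genes whose mRNA is known to cycle over the day.

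The clock is a transcription loop that runs in nearly every cell. The activators ARNTL (also called BMAL1) and CLOCK, or NPAS2 in place of CLOCK, bind E-box sequences as pairs and switch on the Per and Cry genes, and PER and CRY proteins then return to the nucleus and repress them. A second arm is formed by the nuclear receptors REV-ERBα and REV-ERBβ, the products of Nr1d1 and Nr1d2, which repress Arntl. In the hypothalamus the suprachiasmatic nucleus is the pacemaker that light sets, and other hypothalamic cells run the same loop in their own phase, so RNA of the whole hypothalamus adds up many cells. In such bulk RNA, fewer cells of a type and less RNA per cell cannot be told apart.

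The arrays lay on 2 slides, and only the KO group was on both. All WT arrays were on slide 1 with KO replicates 1 and 2, while KO replicate 3 was on slide 2 with both exercised groups. The SD of the probe-by-probe difference was 0.508 and 0.513 on the log2 scale between KO replicate 3 and the other KO arrays, against 0.247 to 0.333 for every other pair of arrays within a group. All 12 hypothalamus markers were tested, and their summed level lay between 18.18 and 18.47 on the log2 scale in each mouse. All 6 striatum markers were tested too, and their summed level was 13.98 in exercised WT replicate 3 against 13.05 to 13.45 in the other mice. The 10 suprachiasmatic nucleus markers were all tested, with summed levels from 15.16 to 15.56 in untrained mice and from 14.77 to 15.28 in exercised mice. Each sum adds linear signals, so the brightest markers weigh most. In WT replicate 1 Avp alone, also in the hypothalamus list, was at 15.20, against a suprachiasmatic nucleus sum of 15.49. The summed level of the 5 cortex and thalamus markers ran from 11.12 to 12.37 and that of the 5 choroid plexus markers from 12.03 to 12.74. A sum can hide a dimmer marker, such as Ttr of the choroid plexus list, which ran from 5.53 to 10.79. The groups overlapped in all these sums, except that every KE mouse was below every WT mouse in the hypothalamus sum (at most 18.38 against at least 18.41) and below every exercised WT mouse in the choroid plexus sum. The part of these marker levels in the clock results was not tested.

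Across the loop the clock genes differed little between groups. In limma's fit of the 4 group means, with Benjamini-Hochberg adjustment over all 35230 tested probes, 1 of the 21 clock probes had an adjusted p under 0.05 in any of the 6 comparisons. This was Per3 probe A_66_P135046, higher in KE than in KO mice, in a comparison where 7 probes or 0.0199% of all those tested passed that threshold. In the other 5 comparisons 0 clock probes and 0% of all probes did, and the counts at an unadjusted p under 0.05 follow. In KO against WT these were 2 of 21 clock probes, or 9.52%, against 5.47% of all probes, and both were lower in KO. In KE against KO they were 5, or 23.8%, against 21.1%, with 4 higher and 1 lower in KE. In exercised WT against WT they were 3, or 14.3%, against 25.9%, and in KE against WT 4, or 19%, against 30.4%, all of them higher after swimming. In KE against exercised WT 1 probe, or 4.76%, was past it against 6.71% of all probes. The swimming by genotype interaction, (KE minus KO) minus (exercised WT minus WT), had 3, or 14.3%, against 7.76%. By the methods' t-test, 0 clock probes passed after adjustment in each of the 5 comparisons of groups, and between 1 and 4 before it. After adjustment 1620 of the 35230 tested probes passed in exercised WT against WT, 4916 in KE against WT and 0 in each of the others. For the counts before adjustment, no share of all probes was computed under this test. With the slide as a term in the limma fit, which sets KO against WT on slide 1 and KE against KO replicate 3 on slide 2, the counts at an unadjusted p under 0.05 were 2, 5, 1, 2, 2 and 3 in the order KO against WT, KE against KO, exercised WT against WT, KE against exercised WT, KE against WT and the interaction, where 5.48%, 9.06%, 6.17%, 10.3%, 4.91% and 10.9% of all probes passed.

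The sizes were small as well. The median absolute log2 difference over the 21 clock probes was 0.09 in KO against WT, 0.15 in KE against KO, 0.11 in exercised WT against WT and 0.10 in KE against exercised WT, where the medians over all tested probes were 0.09, 0.13, 0.15 and 0.08. The SD within a group had a median of 0.103 over the 21 probes and 4 groups. Of the clock probes, 3 in KO against WT, 6 in KE against KO, 5 in exercised WT against WT, 5 in KE against exercised WT and 6 in KE against WT had groups that did not overlap, against 8.63%, 21.5%, 37.6%, 19.6% and 44.1% of all tested probes. The 5 in KE against exercised WT include Npas2, whose probe was tested only through the KE group. In KO against WT 11 clock probes were higher and 10 lower, and with the slide term 10 and 11. In KE against KO 11 were higher and 10 lower, and with the slide term 16 and 5. In exercised WT against WT 6 were higher and 15 lower, and with the slide term 17 and 4. Of all tested probes, 46.1%, 41.6% and 41.6% were higher in these comparisons without the slide term.

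**Figure D1:**
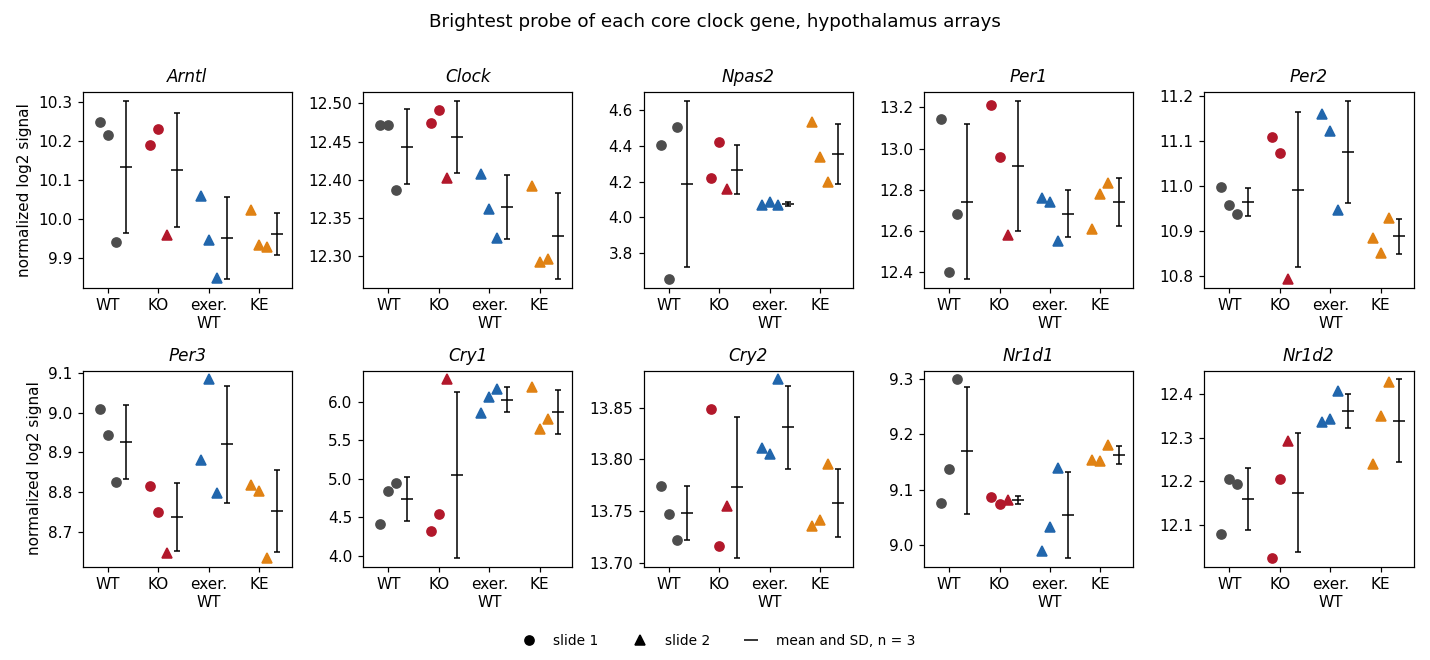
Normalized log2 signal (vertical axes, each with its own range) of the brightest probe of each core clock gene in the WT, KO, exercised WT and KE groups. Each symbol is 1 mouse, circles are arrays of slide 1 and triangles those of slide 2, and bars give the mean and SD of 3 mice. The 3 KO mice span 8.65 to 8.82 at Per3, and Cry1 separates by slide, with KO replicate 3 at 6.29 beside the exercised mice.

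Arntl, the activator that pairs with CLOCK or NPAS2, was measured by 3 tested probes. The brightest, A_52_P267651 (chr7:120456978-120457037 of mm9, plus strand), had log2 signals of 10.25, 10.21 and 9.94 in WT, 10.19, 10.23 and 9.96 in KO, 10.06, 9.95 and 9.85 in exercised WT, and 10.02, 9.93 and 9.93 in KE, in order of replicate. The WT and KO ranges coincided, and WT replicate 3, KO replicate 3 and the exercised mice lay below the other 4 rested arrays. The log2 difference was -0.01 in KO against WT, -0.16 in KE against KO and -0.18 in exercised WT against WT, each with a standard error of 0.10, and the lowest adjusted p of these was 0.271. The latter 2 were 0.00 and 0.07 with the slide term. A_55_P2735445 and A_66_P127371 ran in parallel with it over the 12 arrays, with Pearson r of 0.76 and 0.67 as a description. At A_66_P127371 the KE mice lay below the KO mice without overlap, with a difference of -0.21 (standard error 0.10, adjusted p = 0.257).

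Clock, the partner of ARNTL and a histone acetyltransferase, was also measured by 3 tested probes. Its brightest probe, A_55_P2746404 (chr5:76639992-76640051, minus strand), was at 12.47, 12.47 and 12.39 in WT, 12.47, 12.49 and 12.40 in KO, 12.41, 12.36 and 12.32 in exercised WT, and 12.39, 12.29 and 12.30 in KE. Every KE array lay below every KO array, but by little: the difference was -0.13 (standard error 0.05, adjusted p = 0.215 from limma), and -0.08 (standard error 0.07) with the slide term, where KE is set against KO replicate 3 alone. A_52_P334670 went the same way in KE against KO (-0.15), and A_52_P279391, 24.6 kb from the brightest probe, went the other (0.15). Npas2, which can stand in for CLOCK in the forebrain, lay near the limit of detection, well above background on 7 of 12 arrays. Its single probe (chr1:39418941-39419000, plus strand) was at 4.41, 3.66 and 4.51 in WT, 4.22, 4.42 and 4.16 in KO, 4.07, 4.09 and 4.07 in exercised WT, and 4.53, 4.34 and 4.198 in KE. It was well above background in 1 WT, 1 KO, 2 exercised WT and 3 KE mice, so it was tested only through the KE group. Its differences enter the counts and medians over the clock probes but are not read here.

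Per1 and Per2, the repressors that light and hormones induce fastest, had no difference between groups past the adjusted threshold. Per1 probe A_55_P1970033 (chr11:68923364-68923423, plus strand) was at 13.14, 12.40 and 12.68 in WT, 13.21, 12.96 and 12.58 in KO, 12.76, 12.74 and 12.55 in exercised WT, and 12.61, 12.78 and 12.83 in KE. Its WT mice alone spanned 12.40 to 13.14, wider than the difference in any comparison made, of which the largest was -0.18 (standard error 0.19) in KE against KO. The slide term turned that difference to 0.16 (standard error 0.24). Per2 probe A_55_P2737144 (chr1:93312595-93312654, minus strand) was at 10.998, 10.96 and 10.94 in WT, 11.11, 11.07 and 10.79 in KO, 11.16, 11.12 and 10.95 in exercised WT, and 10.88, 10.85 and 10.93 in KE. KE mice lay below exercised WT mice without overlap, a difference of -0.19 (standard error 0.09, adjusted p = 0.748), while KO replicate 3 was lower still at 10.79. With the slide term the Per2 difference in exercised WT against WT went from 0.11 to 0.41 (standard error 0.11, adjusted p = 0.631). The second Per2 probe, A_52_P536869, was well above background in WT replicates 1 and 2, KO replicate 2 and exercised WT replicate 2, and in no KE mouse.

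Per3, the period gene whose loss is known to leave the clock running, gave the largest difference among the period genes at 1 of its 3 tested probes. This probe, A_66_P135046, lies at chr4:150406022-150406081 of mm9 on the minus strand, 27.5 kb from the brightest Per3 probe. Its sequence in the deposited files is shown because it carries the single adjusted call, with the 19 codons of its only reading frame without a stop in capitals:
Per3 A_66_P135046: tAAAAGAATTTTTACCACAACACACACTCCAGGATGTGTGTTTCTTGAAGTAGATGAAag
Its log2 signal was 5.52, 5.38 and 5.39 in WT, 4.81, 4.68 and 4.76 in KO, 5.42, 5.46 and 5.19 in exercised WT, and 5.85, 5.77 and 5.52 in KE, and all 12 mice were above background by the scanner's mark. The order of the group means was KO 4.75 ± 0.07 (SD, n = 3), exercised WT 5.36 ± 0.15, WT 5.43 ± 0.08 and KE 5.71 ± 0.17. The 3 KO mice lay below all 9 other arrays, exercised WT and WT overlapped, and the KE mice lay above both, with the lowest KE mouse and the highest WT mouse at the same 5.52.

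At this probe Per3 rose in KE against KO by 0.96 on the log2 scale (standard error 0.10, adjusted p = 0.0359 from limma), or 1.95-fold. In KO against WT the difference was -0.68 (standard error 0.10, unadjusted p = 4.802e-05, adjusted p = 0.711), with no overlap of the groups. In exercised WT against WT it was -0.07 (standard error 0.10, adjusted p = 0.674), so the probe differed with swimming in the knockout and within the spread in the wild type. That contrast, tested as the swimming by genotype interaction, was 1.03 (standard error 0.14, unadjusted p = 2.55e-05, adjusted p = 0.358), so that it met the methods' screening criterion (a fold of 2 or more and an unadjusted p no higher than 0.05), as 0.602% of all probes did, but not the adjusted threshold. KE against exercised WT was 0.36 (standard error 0.10, adjusted p = 0.63) and KE against WT 0.29 (adjusted p = 0.0961). The KO arrays did not part by slide here. KO replicate 3 was 0.02 above the mean of the other KO mice, and the slide term left the differences at -0.68 in KO against WT and 0.95 in KE against KO. The call itself was lost with that term (adjusted p = 0.106) and with the 75th percentile scaling (1.08, adjusted p = 0.0753). With normexp background correction, which adds an offset and so shrinks folds at low signal, the difference was 0.40 (adjusted p = 0.0714). With single arrays left out, it was called without KO replicate 3, exercised WT replicate 2 or 3, or KE replicate 3, and not without any of the other 8 (adjusted p up to 0.174).

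The other Per3 probes did not show the same size. A_55_P2752088, the brightest (chr4:150378473-150378532), was at 9.01, 8.94 and 8.83 in WT, 8.82, 8.75 and 8.65 in KO, 8.88, 9.08 and 8.80 in exercised WT, and 8.82, 8.80 and 8.64 in KE. Its KO and KE ranges coincided, with a difference of 0.02 (standard error 0.09), and KO lay below WT by 0.19 without overlap. A_66_P137063 (chr4:150385608-150385667) was at 8.76, 8.60 and 8.89 in WT, 8.68, 8.54 and 8.21 in KO, 8.69, 8.69 and 8.51 in exercised WT, and 8.75, 8.91 and 8.66 in KE. It shared the direction of A_66_P135046, -0.27 in KO against WT and 0.29 (standard error 0.13, adjusted p = 0.223) in KE against KO, but its groups overlapped. Pearson r over the 12 arrays was 0.69 between it and A_66_P135046, and 0.35 between A_55_P2752088 and A_66_P135046. Which transcripts of Per3 each probe reads was not tested.

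**Figure D2:**
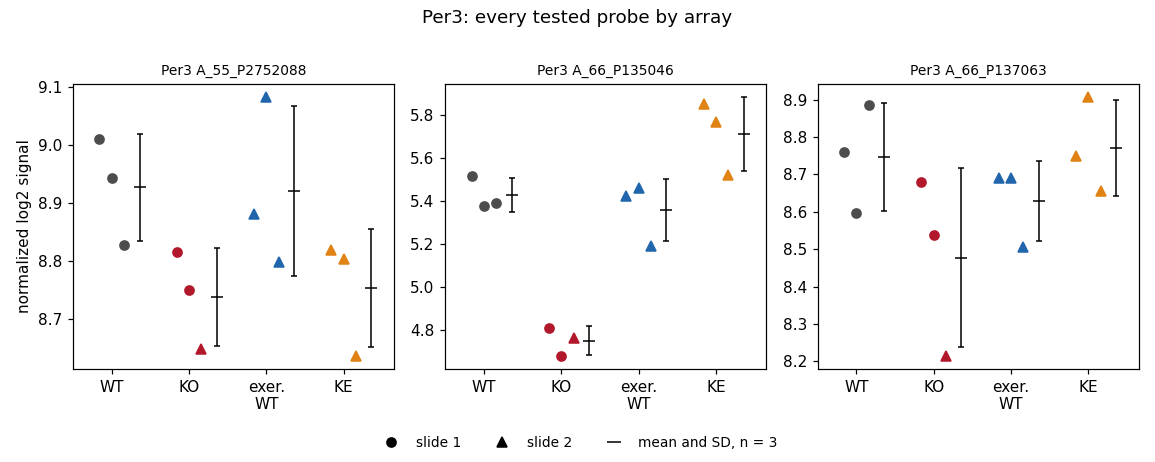
Normalized log2 signal (vertical axes, each with its own range) of the 3 tested Per3 probes in the WT, KO, exercised WT and KE groups, with symbols and bars as in the plot of all clock genes. At A_66_P135046 the 3 KO mice sit between 4.68 and 4.81, below every other array, and at A_55_P2752088 the KO and KE mice overlap.

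Among the cryptochromes, the strongest repressors of the loop, Cry2 held steady at its brightest probe. At another probe, which has no RefSeq transcript in the annotation, the KO mice lay lowest, without an adjusted call. A_55_P2016540 (chr2:92243807-92243866, minus strand) was at 13.77, 13.75 and 13.72 in WT, 13.85, 13.72 and 13.76 in KO, 13.81, 13.81 and 13.88 in exercised WT, and 13.74, 13.74 and 13.80 in KE, a range of 13.72 to 13.88. The exercised WT mice lay above the WT and KE mice without overlap, with differences of 0.08 (standard error 0.05, adjusted p = 0.324) from WT and -0.07 in KE against exercised WT. A_55_P2721990, 21.7 kb from it (chr2:92265472-92265531), was at 9.08, 8.95 and 8.95 in WT, 8.79, 8.78 and 8.54 in KO, 8.81, 9.01 and 8.95 in exercised WT, and 9.03, 9.08 and 8.97 in KE. The KO mice lay below the WT and KE mice without overlap and below every exercised WT mouse, and the means came in the same order as at Per3 A_66_P135046, KO, exercised WT, WT, KE. The differences were -0.29 (standard error 0.08, adjusted p = 0.847) in KO against WT, 0.32 (standard error 0.08, adjusted p = 0.140) in KE against KO and 0.40 (standard error 0.12, adjusted p = 0.537) in the interaction, none past the adjusted threshold. With the slide term the first was -0.21 and the second 0.48. A_55_P1953708 differed by -0.13 in KO against WT and by 0.05 in KE against KO, and its exercised WT mice lay below the WT mice without overlap, with a difference of -0.21 (adjusted p = 0.236).

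Cry1 was the member with the widest range, and its signal followed the slide. A_52_P420500 (chr10:84594731-84594790, minus strand) was at 4.41, 4.84 and 4.95 in WT, 4.32, 4.55 and 6.29 in KO, 5.85, 6.06 and 6.17 in exercised WT, and 6.19, 5.64 and 5.77 in KE. All 5 arrays of slide 1 lay between 4.32 and 4.95 and all 7 of slide 2 between 5.64 and 6.29, with KO replicate 3 the highest array of all. The scanner marked it above background in 11 of 12 mice. The probe met the methods' screening criterion in exercised WT against WT, where 2.19% of all probes did, and in KE against WT, where 2.74% did. The log2 differences were 1.29 and 1.14 (standard error 0.43 each, adjusted p = 0.115 in both). With the slide term they turned to -0.56 (standard error 0.32, adjusted p = 0.821) and -0.72 (standard error 0.32, adjusted p = 0.992). Slide and swimming cannot be told apart in wild-type mice, and the slide term rests on KO replicate 3 against the other KO mice.

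Inside the KO group, where genotype and rest were the same, KO replicate 3 exceeded the mean of KO replicates 1 and 2 by 1.86 at A_52_P420500, at the 99th percentile of all tested probes. The second Cry1 probe, A_55_P2880103, 52.4 kb away (chr10:84647094-84647153), went the other way, by -0.97, at percentile 0.83. It was at 5.09, 5.51 and 4.91 in WT, 5.58, 5.22 and 4.43 in KO, 5.11, 5.09 and 4.54 in exercised WT, and 4.33, 4.05 and 5.28 in KE. The scanner marked it above background in 10 of 12 mice, and in KE in 1 of 3. Its groups overlapped in all comparisons, and Pearson r between the Cry1 probes was -0.63 over the 12 arrays. The probes differed in base composition, with G or C at 14 of 60 bases of A_52_P420500 and at 36 of 60 bases of A_55_P2880103. Over the 321 tested probes under 30% G and C, the median difference between KO replicate 3 and the other KO mice was 0.41, against -0.06 over all 35230. Over the 622 tested probes with 60% or more, a range that holds A_55_P2880103, it was 0.12, opposite in sign to that probe's -0.97. Over the 21 clock probes r between that difference and the share of G and C was -0.65, and -0.27 without the 2 Cry1 probes, while it was -0.05 over all tested probes. The part of base composition in the Cry1 values was not tested.

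Nr1d1 and Nr1d2, the repressors of Arntl, differed from each other in how they followed the slides. Nr1d1 probe A_51_P223776 (chr11:98630526-98631028, minus strand) was at 9.08, 9.14 and 9.30 in WT, 9.09, 9.07 and 9.08 in KO, 8.99, 9.03 and 9.14 in exercised WT, and 9.15, 9.15 and 9.18 in KE. The KE mice lay above the KO and exercised WT mice without overlap, by 0.08 and 0.11, and the KO mice lay closest together (SD 0.0071). The largest of its differences was -0.12 (standard error 0.07) in exercised WT against WT. Nr1d2 probe A_55_P2148534 (chr14:19036568-19036627, minus strand) was at 11.50, 11.73 and 11.71 in WT, 11.55, 11.50 and 11.95 in KO, 11.89, 11.93 and 12.00 in exercised WT, and 11.97, 11.92 and 12.06 in KE. Slide 1 ended at 11.73 and slide 2 began at 11.89. The exercised WT mean exceeded WT by 0.29 and KE exceeded KO by 0.32 (standard error 0.11 each, adjusted p = 0.152 and 0.180), and with the slide term these were -0.13 and 0.04. The brightest Nr1d2 probe, A_55_P2911007, 0.3 kb away (chr14:19036859-19036918), was at 12.08, 12.20 and 12.19 in WT, 12.02, 12.21 and 12.29 in KO, 12.34, 12.34 and 12.41 in exercised WT, and 12.24, 12.35 and 12.43 in KE. Its slides did not overlap either, with 0.20 in exercised WT against WT and 0.02 with the slide term. A_52_P303891, 0.4 kb from that one, stayed between 11.10 and 11.33 with overlapping slides. Together with Cry1 A_52_P420500, these made 3 of 21 clock probes whose slides did not overlap, against 21.8% of all tested probes.

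**Figure D3:**
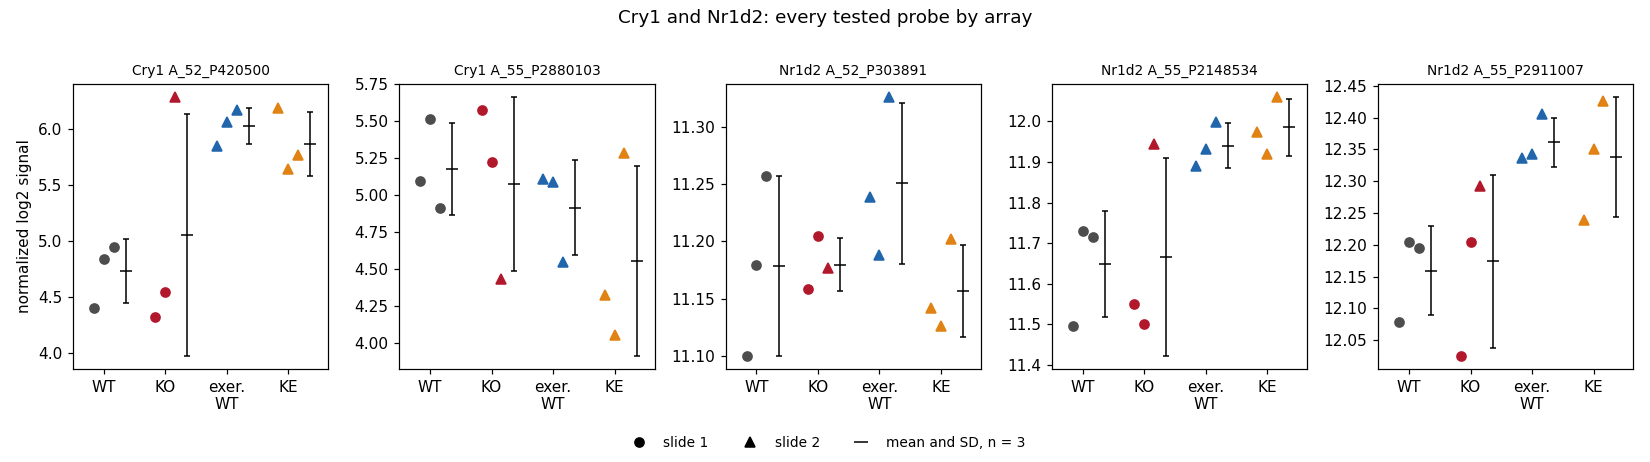
Normalized log2 signal (vertical axes, each with its own range) of every tested probe of Cry1 and Nr1d2 in the WT, KO, exercised WT and KE groups, with symbols and bars as in the plot of all clock genes. At Cry1 A_52_P420500 and Nr1d2 A_55_P2148534 all triangles (slide 2) sit above all circles (slide 1), KO replicate 3 included.

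The count of called clock probes depended on KO replicate 3. Without it, 4 of 21 had an adjusted p under 0.05 in KE against KO, in a comparison where 24.4% of all probes then did. They were Per3 A_66_P135046 (0.97), Cry1 A_52_P420500 (1.44), Nr1d2 A_55_P2148534 (0.46) and Cry2 A_55_P2721990 (0.24). Without it, 2 were called in exercised WT against WT and 2 in KE against WT, the Cry1 and Nr1d2 probes both times, where 18% and 23.2% of all probes were called. In that fit the remaining rested mice were all on slide 1 and the exercised mice all on slide 2. In a fit on the arrays of the compared groups alone, the Cry1 probe was called in exercised WT against WT, where 8.35% of all probes were, and the Cry1 and Nr1d2 probes in KE against WT, where 17.6% were.

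**Figure D4:**
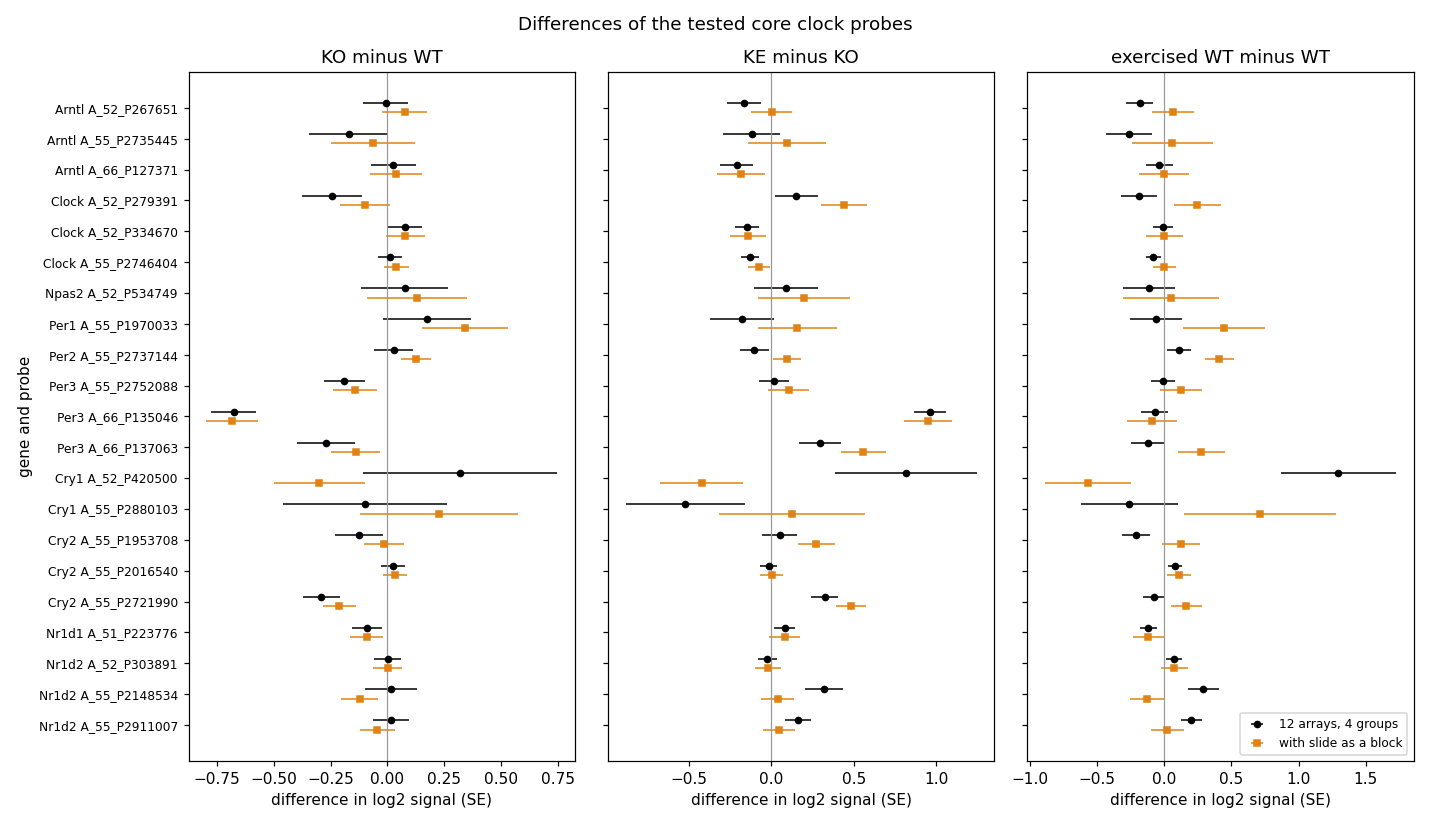
Log2 differences (horizontal axes, each with its own range) with their standard errors for the 21 tested clock probes in 3 comparisons of groups. Black circles are from the fit of 4 group means and orange squares from the fit with the slide term. Per3 A_66_P135046 stays at -0.68 in KO against WT and near 0.95 in KE against KO in both fits, whereas Cry1 A_52_P420500 goes from 1.29 to -0.56 in exercised WT against WT.

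The promoter windows of the clock genes hold a few of the sequences through which the loop is known to act. RefSeq windows (GRCm38.p6) from 250 bases before to 50 after a start were at hand for 9 of the 10 genes, 13 windows in all, and Per2 had none. The E-box CACGTG was found in the windows of Per1 and Cry1, against 7.15% of all 32851 promoters. The D-box TTANGTAA, which DBP, TEF, HLF and NFIL3 bind, was found in that of Per3 alone, against 2.32%, at both -205 and -158, counted from the start to the first base of the match. The half-site AGGTCA of REV-ERB and ROR receptors was found in windows of Per1, Arntl, Clock and Nr1d2, against 16.3%. Both strands were searched, and no matches overlapped. A match is a description of these windows and says nothing about binding in these mice. The windows of Per3 and Cry1 are shown, as the genes of the largest differences above, with the matches in capitals (D-boxes in Per3, the E-box at -60 in Cry1):
Per3 chr4:151044616-151044915, minus strand: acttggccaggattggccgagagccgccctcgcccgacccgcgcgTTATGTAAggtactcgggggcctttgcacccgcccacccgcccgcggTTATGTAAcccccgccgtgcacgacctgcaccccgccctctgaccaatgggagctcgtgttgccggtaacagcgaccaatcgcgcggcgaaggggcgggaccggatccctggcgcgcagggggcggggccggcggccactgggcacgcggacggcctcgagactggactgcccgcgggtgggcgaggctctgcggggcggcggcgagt
Cry1 chr10:85185005-85185304, minus strand: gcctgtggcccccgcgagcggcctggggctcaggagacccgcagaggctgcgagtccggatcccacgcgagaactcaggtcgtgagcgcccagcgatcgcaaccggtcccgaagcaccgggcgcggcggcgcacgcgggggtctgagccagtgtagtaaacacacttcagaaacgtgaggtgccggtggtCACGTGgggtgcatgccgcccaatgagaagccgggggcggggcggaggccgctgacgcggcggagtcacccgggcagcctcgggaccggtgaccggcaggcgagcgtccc

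The brightest probes of Arntl and Clock varied together, with Pearson r = 0.91 over the 12 arrays and 0.91 after group means were subtracted, which is a description over arrays that share slides. Arntl and Nr1d2 ran opposite, with r = -0.79 and -0.59, and Cry1 and Nr1d2 ran together, with r = 0.81 and 0.57. Per1 and Per2 had r = 0.47 and 0.68. The 3 genes most like Cry1 A_52_P420500 over the 12 arrays, among 30406 tested probes with a symbol, were A730091E23Rik, Tomm20 and Gpr176 (r = 0.98 each), and after group means were subtracted Nfya, BC100530 and Slc25a44 (r = 0.98 each). This Cry1 probe parted by slide, and its SD was 1.08 in KO against 0.29 in WT, 0.16 in exercised WT and 0.29 in KE. Whether these r values rest on the slides or on KO replicate 3 was not tested. Those most like Npas2, the member whose brightest probe had the next highest variance, detected in 7 of 12 mice, included B230312C02Rik (r = 0.88) and Zfp300 (r = 0.87), and were Sp6 (r = 0.96), Dnajc11 (r = 0.95) and Ehd1 (r = 0.95) after group means were subtracted.

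Clock-controlled genes and the enzymes that modify clock proteins were followed at their brightest probe. Of 22 such genes, all tested, 0 had an adjusted p under 0.05 in any of the 6 comparisons (limma), and 0 reached the screening thresholds. At an unadjusted p under 0.05, 1 was higher and 3 lower in KE against KO, where 8.1% of all tested probes were higher and 13% lower at that p, and 2 were higher and 3 lower in exercised WT against WT, where 11.7% and 14.2% were. Their median log2 difference was 0.02 in KO against WT, -0.06 in KE against KO and -0.02 in exercised WT against WT, where the medians over all probes were -0.01, -0.04 and -0.04. Ciart, a repressor of the loop, was at the upper end in KE against KO. Its log2 signal was 7.23, 7.23 and 7.36 in WT, 7.32, 7.26 and 7.42 in KO, 7.37, 7.65 and 7.76 in exercised WT, and 7.56, 7.74 and 8.01 in KE. The KE mice lay above all untrained mice, by 0.44 (standard error 0.12, adjusted p = 0.154) over KO, and by 0.35 with the slide term. Nfil3, which binds the D-box as a repressor, was at the lower end of that comparison with -0.29 (standard error 0.14, adjusted p = 0.258). Of the D-box activators, Dbp differed by 0.19, Tef by -0.01 and Hlf by -0.17 in KE against KO, none past the adjusted threshold.

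Of the 10 markers of the suprachiasmatic nucleus, 0 had an adjusted p under 0.05 in any comparison (limma), and at an unadjusted p under 0.05 1 was lower in KE against KO and 1 in exercised WT against WT, where 13% and 14.2% of all tested probes were. Their median difference was 0.10 in KO against WT and -0.12 in KE against KO, and 9 of 10 were lower in KE than in KO mice, where 41.6% of all probes were higher. With the slide term the median in KE against KO was -0.09, 6 of 10 were lower, and 0 had an unadjusted p under 0.05.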

How the data were processed

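Arrays of 12 hypothalami were used, 3 per group, with groups and replicate numbers as the sample titles give them. The authors deposited one scanner file per array, holding the intensity of each spot as Feature Extraction 10.7.1.1 left it after background subtraction, and a table of log2 values that they had quantile-normalized in GeneSpring. Their lists for each comparison (fold change, p-value and 24 columns of values per sample) were not used.

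From the processed signal, control and outlier spots were removed, log2 was taken, each probe's spots were averaged and the 12 arrays were quantile-normalized. Probes that the scanner marked as well above background in every array of some group were tested (35230 of 56605) with limma 3.58.1 in R 4.3.3 as 4 group means, with Benjamini-Hochberg adjustment. The 6 comparisons share groups, so their values are not independent. The members, the gene lists and the alternatives were chosen with earlier results of these data known. Every probe of the 10 members is accounted for, the brightest tested probe in full; genes of other lists are named at the screening criterion or at the extremes, and for the 2 members whose brightest probe varied most the 3 most correlated genes, of which 1 is not reported here. The fit was tested on simulated data. P-values measure the spread between these arrays, whose number limits the precision. Probe positions are those of the deposited table, build mm9, and levels were compared within a probe only. Figures were drawn with Python 3.11.15 and matplotlib 3.10.9.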

Additional observations from a re-analysis of the deposited data

How the results depend on the processing

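Alternatives were 75th percentile scaling, normexp (offset 50), the values of the authors' table, testing every probe, testing those detected in all 12 mice, keeping outlier spots, a slide term, a replicate block, the t-test of the methods and a fit of the compared groups alone (both not for the interaction), and leaving out single arrays. The count of clock probes at an adjusted p under 0.05, 1 for KE against KO as reported, was 0 with 75th percentile scaling, with normexp, with the slide term, with the replicate block, with the t-test and in the fit of the compared groups alone, and ran from 0 to 4 when single arrays were left out, the 4 without KO replicate 3. It was 1 with the authors' table, with both detection filters and with outlier spots kept. Per3 A_66_P135046 was called in 8 of 22 alternatives, with differences from 0.40 to 1.08 and adjusted p from 0.0006605 to 0.3032. For exercised WT against WT the count was 0 as reported, 1 in the fit of the compared groups alone and 0 to 2 without single arrays, and for KE against WT it was 0 as reported, 2 in the fit of the compared groups alone and 0 to 2 without single arrays. It was 0 in every alternative run for KO against WT, KE against exercised WT and the interaction. With the slide term the Cry1 A_52_P420500 differences reversed to -0.56 for exercised WT against WT and -0.72 for KE against WT. Counts at an unadjusted p under 0.05, reported as 2, 5, 3, 1, 4 and 3 for KO against WT, KE against KO, exercised WT against WT, KE against exercised WT, KE against WT and the interaction, ran over all alternatives from 2 to 4, 2 to 9, 1 to 5, 1 to 3, 1 to 9 and 2 to 4. The share of all tested probes was not counted for every alternative, so these ranges are not read as results about the clock probes. Another 83 values changed sign with no unadjusted p under 0.05 on either side. The cause of these changes was not tested, except that the slide term leaves KE against KO to a single KO array.

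Same-numbered mice did not deviate together (correlations of deviations from the group means from -0.19 to 0.245), so the number does not pair them. With the replicate block 0 clock probes were called in KE against KO, where 1 was called without it, and the adjusted p of Per3 A_66_P135046 was 0.084, while the counts at an unadjusted p under 0.05 became 3, 8, 5, 3, 9 and 4. How many of all tested probes passed that unadjusted threshold with the block was not counted. Precision is set by 3 arrays per group, and Npas2 was well above background in 7 of 12 mice.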

Other observations

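Genes that light or neuronal activity induce and genes that glucocorticoids induce, which are inputs that can reset the clock through Per1, were followed beside it. Of 8 genes induced by light and activity, 0 had an adjusted p under 0.05 in any comparison (limma). In KE against KO 7 of 8 were lower, with a median log2 difference of -0.23 and 2 (Egr1 and Fosb) at an unadjusted p under 0.05. Of all tested probes, 41.6% were higher in that comparison and 13% were lower at that p. The slide term gave a median of -0.06 and 5 of 8 were lower. Egr1 met the screening criterion in the interaction, at -1.01 (standard error 0.41, adjusted p = 0.607).

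Of 8 glucocorticoid-induced genes, Per1 among them, 8 were higher in KO than in WT mice (median 0.29) and 8 were lower in KE than in KO mice (median -0.34), where 46.1% and 41.6% of all tested probes were higher. In the interaction all 8 were lower, with a median of -0.51, and 5 were at an unadjusted p under 0.05, against 4.18% of all tested probes in that direction. Sgk1 (-1.49, standard error 0.55), Zbtb16 (-1.51, standard error 0.53) and Cdkn1a (-1.15, standard error 0.36) met the screening criterion there, as 0.602% of all probes did. Their adjusted p values were 0.576, 0.568 and 0.551, and 0 of the 8 had an adjusted p under 0.05 in any comparison. Cdkn1a also met the criterion in KE against KO, at -1.05, where 1.21% of all probes did. The paper tried Cdkn1a by qRT-PCR and lists it among the genes that were not verified. Without KO replicate 2, a library left out after its values were seen, 7 of 8 were higher in KO against WT (median 0.14), 6 of 8 were lower in KE against KO (median -0.14), and 8 were lower in the interaction (median -0.34), 5 of them at an unadjusted p under 0.05. That library had the highest signal of the 12 for each of the 8 genes except Per1, and without it Sult1a1 differed by -0.10 in KO against WT and 2 of the 8, Zbtb16 among them, met the screening criterion in the interaction. For the fit without that library the shares of all tested probes at these thresholds were not counted. Its counts are therefore not read as results about these genes. With the slide term the medians were 0.38 in KO against WT, -0.12 in KE against KO and -0.61 in the interaction. Per1 itself was at -0.12 (standard error 0.27) in the interaction, nearest to 0 of the 8. The comparisons share their arrays, so these counts are not independent of each other. Both this list and that of light and activity were chosen with earlier results of these data known. Their counts beside the shares of all probes are therefore descriptions and not tests.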
